A study of Mus musculus with 5 samples.

Results

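The 47 genes described here belong to families of enzymes that add methyl groups to histones (31 counted as writers) or remove them (16 erasers). The 31 include Kmt2e, with no known catalytic activity, and 4 SET or SMYD proteins with non-histone or debated substrates. The members were taken by symbol from a named list, matched to the Entrez identifiers of 3 count tables, and all 47 were found among 27179 genes. The tables hold read counts for H3K14ac, histone H3 acetylated on lysine 14. CUT&Tag reads this mark by tethering Tn5 to an antibody, so that DNA is tagged beside the marked nucleosomes. LSK cells, the fraction without lineage markers but with Sca-1 and Kit in which haematopoietic stem and early progenitor cells are enriched, were sorted from bone marrow of male C57BL/6 mice. The control group was labelled Hbo1def/+; T/+ and the knockout group Hbo1def/def; T/+, each with 2 libraries. All mice had received poly(I:C) to induce Mx1-cre, so the controls were induced heterozygotes, and the T/+ component, whose meaning the labels do not give, was shared by both groups. Mx1-cre is driven by an interferon-responsive promoter and is not specific to LSK cells. HBO1, also called KAT7, is a histone acetyltransferase, and the groups differ in the alleles of its gene. The series lists 5 libraries, and the HBO1 library was not analysed here. Whether a replicate is a separate mouse is not said in the labels, and the p-values therefore speak only to the spread between libraries, which may be technical.

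Writers and erasers set the methylation state of histone tails at given residues. H3K4 methylation by the KMT2 and SETD1 enzymes marks promoters and enhancers, H3K36 methylation marks transcribed bodies, H3K79 methylation by DOT1L follows elongation, and H3K9, H3K27 and H4K20 methylation are linked to repression and compaction. Erasers are flavin-dependent amine oxidases (KDM1A and KDM1B) or Jumonji-C dioxygenases (the other KDM proteins), and several members, among them KMT2A, DOT1L and KDM1A, are known for roles in blood stem cells and leukaemia. The data below are acetylation at the genes of these enzymes, not the methylation they write and not their expression.

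Counts were available for 3 regions of each gene: the body, a 5 kb window before the transcription start (upstream) and another of 5 kb after the gene end (downstream). The sequence at the start therefore bears on the upstream values, and 33 of the 47 members matched a RefSeq promoter entry (GRCm38.p6). Setd1b, Kmt2b, Nsd3, Kmt2e, Kdm5a, Ash1l, Carm1, Nsd2, Kdm3b, Kdm6b, Kdm2a, Kdm4b, Nsd1 and Smyd3 had no matching entry. The 250 bases before the start, which lie inside the counted window, are printed for 4 members, with every CG dinucleotide in capitals. Kmt2d and Setd1a are shown as H3K4 writers whose upstream signal rose, Smyd2 as a CG-dense start without a call, and Kdm4c as the member with the lowest fold. The Kmt2d window is chr15:98871206-98871455 on the minus strand, the Setd1a window chr7:127777139-127777388 on the plus strand, and the Smyd2 window chr1:189922292-189922541 on the minus strand. Kdm4c has 2 entries on the plus strand, an outer start with the window chr4:74242247-74242496 and an inner start with the window chr4:74251629-74251878.
Kmt2d: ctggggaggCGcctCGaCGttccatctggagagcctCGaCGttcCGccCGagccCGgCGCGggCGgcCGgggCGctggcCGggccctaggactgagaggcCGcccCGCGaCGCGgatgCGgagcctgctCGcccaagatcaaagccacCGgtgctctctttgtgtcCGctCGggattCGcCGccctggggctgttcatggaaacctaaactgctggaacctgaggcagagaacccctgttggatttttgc
Setd1a: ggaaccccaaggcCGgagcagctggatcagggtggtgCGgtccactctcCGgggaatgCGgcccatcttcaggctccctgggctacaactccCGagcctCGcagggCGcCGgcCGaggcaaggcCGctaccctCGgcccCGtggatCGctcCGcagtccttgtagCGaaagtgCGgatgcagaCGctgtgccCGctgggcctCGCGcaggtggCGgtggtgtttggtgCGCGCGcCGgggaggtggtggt
Smyd2: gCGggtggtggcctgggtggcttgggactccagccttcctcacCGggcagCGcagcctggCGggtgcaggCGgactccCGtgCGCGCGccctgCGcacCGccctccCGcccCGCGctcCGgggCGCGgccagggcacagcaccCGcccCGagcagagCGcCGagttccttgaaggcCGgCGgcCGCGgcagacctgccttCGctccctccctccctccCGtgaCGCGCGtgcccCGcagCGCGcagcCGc
Kdm4c outer start: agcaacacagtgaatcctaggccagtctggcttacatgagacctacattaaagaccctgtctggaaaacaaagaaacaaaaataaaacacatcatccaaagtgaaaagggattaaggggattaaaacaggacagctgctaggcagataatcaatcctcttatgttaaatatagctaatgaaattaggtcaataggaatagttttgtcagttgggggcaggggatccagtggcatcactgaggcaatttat
Kdm4c inner start: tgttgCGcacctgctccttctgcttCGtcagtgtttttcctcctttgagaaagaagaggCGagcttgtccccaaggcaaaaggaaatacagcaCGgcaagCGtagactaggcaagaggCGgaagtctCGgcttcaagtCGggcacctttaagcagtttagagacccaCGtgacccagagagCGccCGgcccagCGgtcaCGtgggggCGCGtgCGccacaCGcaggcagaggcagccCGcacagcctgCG
The windows hold 26 CG dinucleotides for Kmt2d, 25 for Setd1a and 34 for Smyd2. The outer Kdm4c window holds 0 and the inner one 19. The deposited Kdm4c length, 163368 bp, equals the distance from the outer start to the gene end, and the inner start implies 153986 bp, so the counted upstream window lies before the CG-free start. For Kmt2d the deposited length of 39537 bp matches the printed start, which lies inside the RefSeq gene span of chr15:98831669-98874077.

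CG-rich starts were common among the members. Within 500 bp on either side of the outermost RefSeq start, 40 of 47 members (85.1%) had an observed-to-expected CpG ratio of at least 0.6, against 39.9% of all genes with a position. Kmt2d counted as not CpG-rich by this measure because its outermost start is not the deposited one. For Kdm6a the ratio was 0.15 at the outermost start. It was 0.68 in the 250 bases before the entry start closest to the deposited Kdm6a length. In the 250-base windows the median number of CG dinucleotides was 18 over the 33 matched members and 9 over 22271 genes with an entry. On both strands 4 short motifs were searched, none of which contains another. The GC-box core GGGCGG was present in 66.7% of the members and 42.4% of all promoters, CCAAT in 42.4% and 35.4%, the ETS-type letters CCGGAAG in 12.1% and 8.86%, and the cAMP-response letters TGACGTCA in 3.03% (Suv39h2 alone) and 1.95%. GGGCGG was present in 16 of the 24 matched members whose upstream signal rose and in 6 of the 9 that were not called.

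Total counts over the 3 regions were 14811651 and 12793434 in the controls and 6466740 and 7633706 in the knockouts, so the knockouts held fewer reads. A spike-in is not given in the sources used here. Throughout, rose and fell therefore mean relative to the other genes of a region after scaling. Whether the total amount of the mark changed cannot be read from these counts. Upstream counts of the members were low, between 2 and 399 per library. At Kat7, the targeted gene, upstream CPM (read counts scaled to library size by TMM within a region) was 45.1 and 40.6 in the controls and 19.3 and 24.4 in the knockouts (log2 fold -0.97, SE 0.47, edgeR adjusted p 0.0872). Over the Kat7 body it was 30.7 and 30.1 against 88.2 and 39.1 (log2 fold 1.06, SE 0.32, edgeR adjusted p 0.00668). Acetylation at the locus does not check the deletion. Of 7 LSK markers, 3 rose upstream and 0 fell, and their summed upstream CPM was 463 and 364 in the controls and 666 and 557 in the knockouts. Over gene bodies Flt3 and Gata2 rose (1.53 and 1.42) and Slamf1 fell by 0.73 on the log2 scale, the T cell gene Cd3d rose by 2.15 and Cd8a fell by 1.18, and the stromal and endothelial genes Pdgfra and Cdh5 fell by 0.99 and 0.86. Downstream Meis1, Cd3d and Cd79a, a B cell gene, rose (2.58, 2.34 and 2.47), and no marker fell. Markers of other cells carried signal too, with none of the lists at 0. Summed upstream CPM for the libraries in that order was 194, 175, 78.4 and 156 at 3 T cell genes, and 243, 187, 115 and 157 at 3 B cell genes. It was 355, 327, 449 and 295 at 4 granulocyte and macrophage genes, and 245, 231, 148 and 162 at 4 stromal and endothelial genes. Of the 3 erythroid genes 2 were tested, with 109, 115, 92.1 and 120. Their part in the results was not tested, and in bulk libraries fewer cells of a type and less signal per cell cannot be told apart. Knockout replicate 1 was above knockout replicate 2 at 38 of 47 members upstream (48.3% of all genes and 71.6% of genes with a CpG-rich start), so the 2 knockouts differed at the members.

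In the controls the writers and erasers lay low. Their median upstream level was 3.47 and 3.81 CPM per kb, against 6.08 and 5.97 over all 23200 genes tested, and 9 of 47 members were above the median of all genes. For comparison, olfactory and vomeronasal receptors, with no known role in blood cells, had control medians of 6.42 and 5.30 CPM per kb. In the knockouts the order was turned: the members' medians were 13 and 7.76 CPM per kb, those of all genes 6.14 and 6.87, and those of the receptor genes 2.27 and 3.55. Then 35 of 47 members were above the median of all genes. Genes with a CpG-rich start had medians of 4.17 and 4.64 in the controls and 9.09 and 7.09 in the knockouts, and genes without one 8.51 and 7.62 against 5.0 and 6.87. Over gene bodies the members' medians were 0.278 and 0.395 CPM per kb in the controls, against 0.851 and 0.853 over all genes, and 0.811 and 0.616 against 0.930 and 0.940 in the knockouts. These are levels per library with no test.

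**Figure D1:**
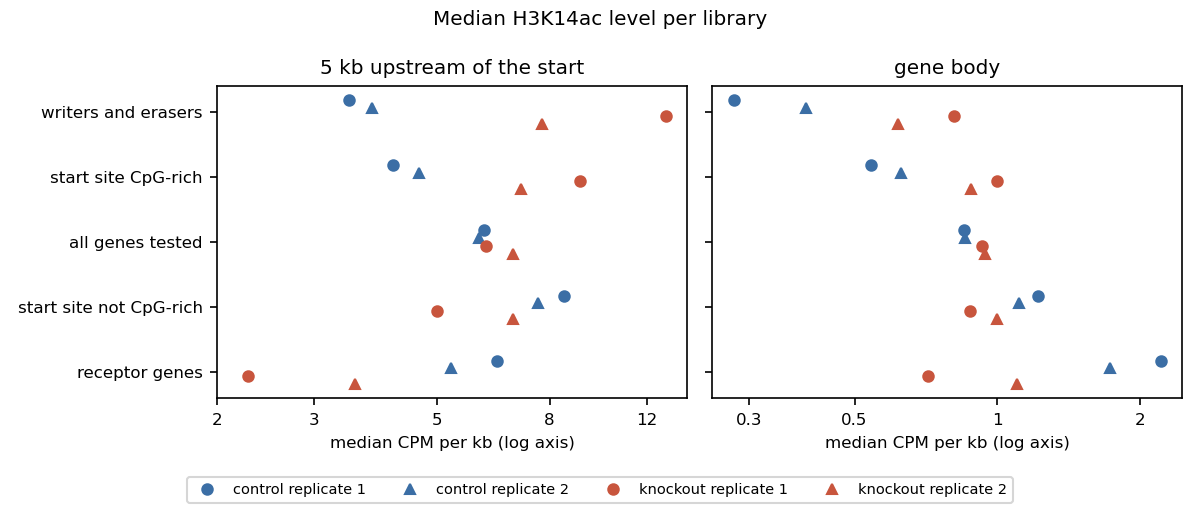
Median H3K14ac level (CPM per kb, log axis) in each of the 4 libraries for the writers and erasers, for genes by start type, for all genes tested and for receptor genes, upstream (left) and over gene bodies (right). Upstream the members' medians lie at 3.47 and 3.81 in the controls, below all genes, and at 13 and 7.76 in the knockouts, above all genes.

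Among the members, the control order per kb differed by region. Upstream the highest control levels were at Kdm4c, an eraser of H3K9 and H3K36 methylation (16.7 and 14.9 CPM per kb), at Setd7, a monomethyltransferase of H3K4 (11.6 and 9.94), and at Ehmt1, an H3K9 writer (10.4 and 9.94). The first of these lay above the next 2 in both controls, and Setd7 and Ehmt1 did not differ beyond their spread. The lowest were Nsd3, an H3K36 writer (0.521 and 0.331), Kdm1a, the amine oxidase LSD1 (0.868 and 1.66), and Kdm3b, an H3K9 eraser (0.868 and 1.99), of which the last 2 overlapped. Over gene bodies the highest control levels were at Smyd3 (2.06 and 1.77 CPM per kb), Kdm4b (1.37 and 1.37) and Smyd2 (1.23 and 1.26), and the lowest at Suv39h1 (0.174 and 0.160), Ehmt2 (0.0953 and 0.235) and Kdm5c (0.115 and 0.159). Downstream Smyd3, Kdm4b and Setd3 were highest, with 19.6 and 16.8, 18.3 and 14.8, and 19.6 and 11 CPM per kb. Kdm6b (0.157 and 0.160), Nsd3 (0 and 0.479) and Kdm2b (0.626 and 2.07) were lowest there.

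Upstream of the start, H3K14ac rose at 34 of 47 members in the knockouts and fell at 0 by edgeR's quasi-likelihood test (adjusted p under 0.05). Over all 23200 genes tested 24.0% rose and 14.3% fell, and over 9339 genes with a CpG-rich start 43.4% rose and 3.14% fell. The median log2 fold was 1.88 over the members, -0.09 over all genes and 0.95 over genes with a CpG-rich start. By class, 22 of 31 writers (median 1.80) and 12 of 16 erasers (median 1.95) rose. At an unadjusted p under 0.05 the test gave 1 lower member, Kdm4c, and the DESeq2 Wald test called 33 higher and 0 lower. In 41 members both knockouts lay above both controls (37.8% of all genes) and in 2, Kdm4c and Ehmt1, both lay below (39.9%). Of 9339 genes with a CpG-rich start, both knockouts lay above both controls in 6017 and below in 1335.

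The number of calls depended on single libraries. Leaving out control replicate 1 or knockout replicate 1 left 0 of 47 called (15 and 30 at an unadjusted p under 0.05 in either direction), leaving out control replicate 2 left 1, Nsd3 (24 at an unadjusted p under 0.05), and leaving out knockout replicate 2 left 18. The members' median log2 fold without each of these was 1.75, 1.42, 1.92 and 2.26 in that order. Without knockout replicate 1 no gene of the whole table was called upstream in either direction (5770 at an unadjusted p under 0.05). Knockout replicate 2 on its own lay above both controls at 43 of 47 members, against 43.6% of all genes and 69.8% of genes with a CpG-rich start. Scaling moved the median of all genes, by -0.18 with library totals, 0.55 with totals pooled over regions and 0.92 with receptor genes. Relative to that median the members stood 1.97 higher on the log2 scale.

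**Figure D2:**
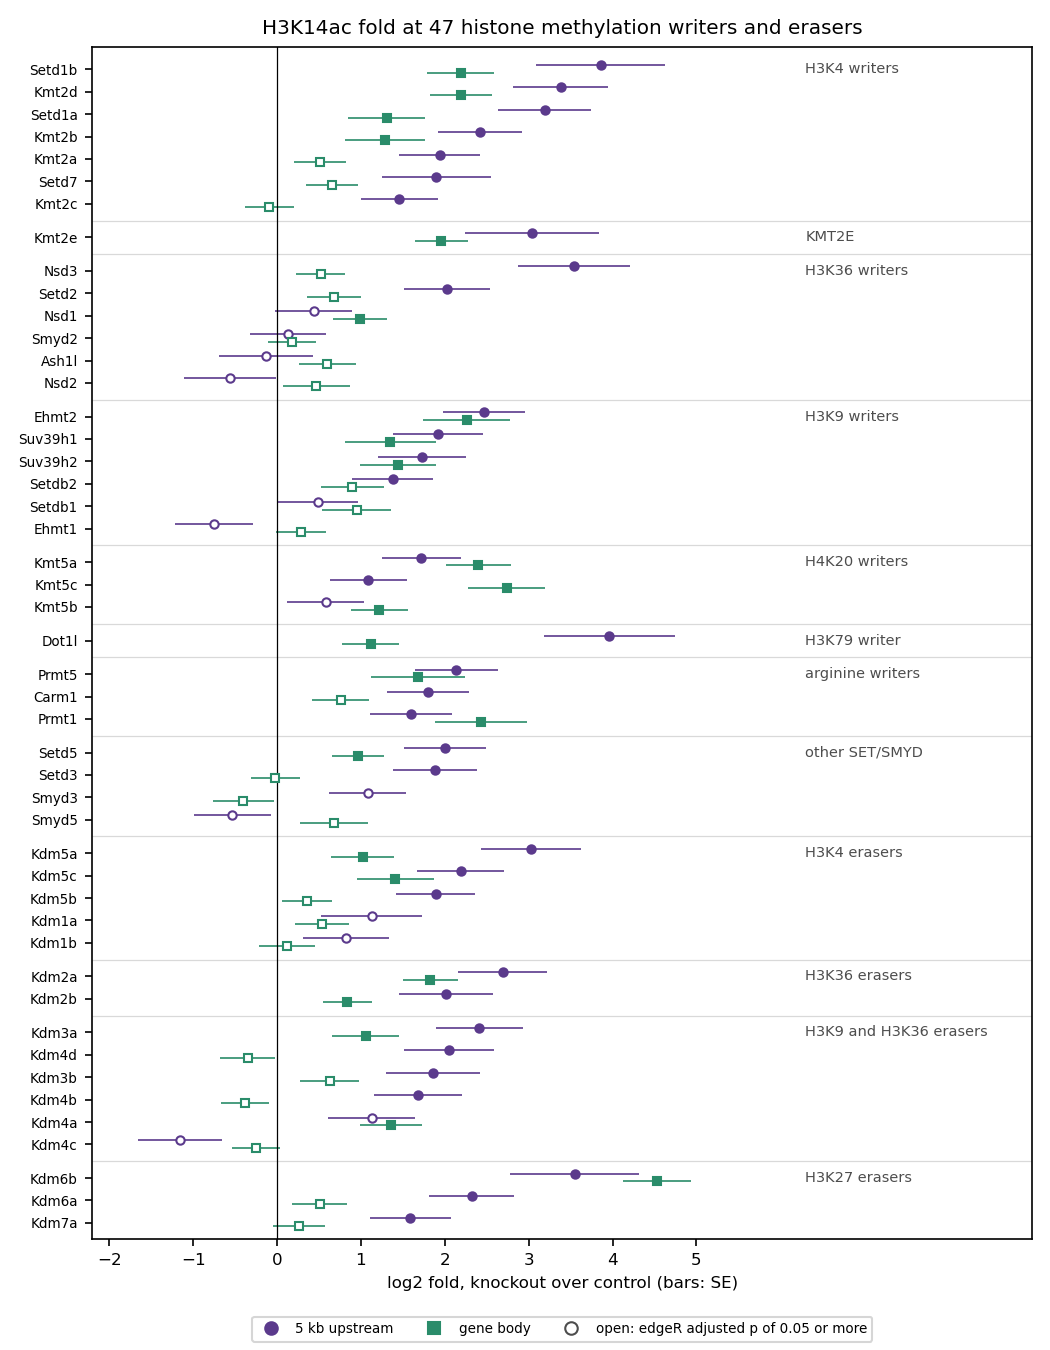
Log2 fold of knockout over control (points, with SE as bars) for all 47 members, grouped by substrate, upstream (circles) and over the gene body (squares), with filled symbols for edgeR adjusted p under 0.05. Upstream folds run from -1.16 at Kdm4c to 3.96 at Dot1l, and all 7 H3K4 writers are filled.

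All 7 H3K4 writers rose upstream, with a median log2 fold of 2.42 and a range from 1.46 to 3.86. Kmt2d encodes a large enhancer-associated writer that is often mutated in lymphoma. Its upstream CPM was 11.3 and 11.6 in the controls and 164 and 77.6 in the knockouts (log2 fold 3.38, SE 0.57, edgeR adjusted p 2.6e-07). Setd1a, a catalytic subunit of a COMPASS complex at promoters, had 11.3 and 13.3 CPM against 161 and 65.4 (log2 fold 3.19, SE 0.55, edgeR adjusted p 6.3e-07). Its paralog Setd1b, on chr5:123142040-123168630 (plus strand), had 17.4 and 22.4 against 434 and 145 (log2 fold 3.86, SE 0.77, edgeR adjusted p 1.7e-05), in a window that also holds the start of Rhof. In each of these genes the lower knockout was far above both controls, and knockout replicate 1 was the higher knockout. Kmt2b, which acts at bivalent promoters, had 10.4 and 18.2 against 105 and 49.9 (log2 fold 2.42, edgeR adjusted p 2.7e-05). Kmt2a, the MLL gene that is rearranged in acute leukaemia, had 17.4 and 19.1 against 90.9 and 49.9 (log2 fold 1.94, edgeR adjusted p 5.5e-04). The remaining members of the list, Setd7 and Kmt2c, rose by 1.90 and 1.46 on the log2 scale (edgeR adjusted p 0.0143 and 0.00801). Kmt2e, a KMT2 relative with no known catalytic activity, reached the highest upstream CPM of any member, 453 and 227 against 42.5 and 39.8 (log2 fold 3.04, SE 0.80, edgeR adjusted p 0.00124). Without control replicate 1, control replicate 2 or knockout replicate 1 the calls of all 7 H3K4 writers were lost, with folds from 1.13 to 3.69, 1.79 to 4.05 and 1.04 to 2.90. Kmt2e then had 3.10, 3.0 and 2.50 and was lost too, and scaling on receptor genes left it at 4.12 with an edgeR adjusted p of 0.0502. Without knockout replicate 2, 5 of the 7 were still called and the lost calls were those of Kmt2b and Kmt2c, with folds from 1.96 to 4.59 over the list.

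H3K36 writers were split: 2 of 6 rose, and the median log2 fold was 0.28. Nsd3, whose product has a PWWP reader domain beside its SET domain, had 2.60 and 1.66 CPM in the controls and 38.6 and 13.3 in the knockouts (log2 fold 3.54, SE 0.67, edgeR adjusted p 6.1e-06), from 3, 2, 34 and 12 reads. Setd2, the writer of H3K36 trimethylation, had 24.3 and 23.2 against 139 and 56.5 (log2 fold 2.03, SE 0.51, edgeR adjusted p 7.1e-04). Nsd3 shares its upstream window with the start of Letm2, so its reads cannot be assigned to either gene. Nsd2 had 17.4 and 17.4 in the controls and 5.68 and 17.7 in the knockouts, Ash1l 9.55 and 17.4 against 5.68 and 18.8, and Smyd2 26.0 and 44.7 against 36.4 and 41.0. The groups overlapped in all 3, with log2 folds of -0.56, -0.13 and 0.13 (SE 0.55, 0.56 and 0.45). The deposited lengths of Nsd2 and Ash1l are 0.71 and 0.881 of their RefSeq spans, so their counted starts are uncertain. Nsd1, which is mutated in Sotos syndrome, had a log2 fold of 0.44 (SE 0.46, edgeR adjusted p 0.43). Leaving out control replicate 1 or knockout replicate 1, the calls of Nsd3 and Setd2 were lost (folds of 3.87 and 2.07, then 2.63 and 1.29), and without control replicate 2 that of Setd2 was lost (2.00).

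Among 6 H3K9 writers 4 rose upstream, and the paralogs Ehmt1 and Ehmt2, whose products form the G9a-GLP dimer, differed in direction. Ehmt2 (G9a) had 13.9 and 12.4 CPM in the controls and 97.7 and 48.7 in the knockouts (log2 fold 2.47, SE 0.49, edgeR adjusted p 1.8e-05). Ehmt1 (GLP) had 52.1 and 49.7 against 25.0 and 35.5 (log2 fold -0.75, SE 0.46, edgeR adjusted p 0.178). Both knockouts of Ehmt1 lay below both controls, but the difference did not pass the test, and the difference between the paralogs was not tested. The Ehmt2 window holds the start of Zbtb12, and the deposited length of Ehmt1, 96299 bp, is shorter than the 128841 bp its RefSeq start implies, so its counted start is uncertain. Suv39h1, Suv39h2 and Setdb2 rose by 1.92, 1.73 and 1.38 on the log2 scale (edgeR adjusted p 0.00261, 0.005 and 0.0148), the call of Setdb2 being lost with library totals (1.18), and Setdb1, which silences endogenous retroviruses, had 0.49 (SE 0.48). All 4 calls were lost without control replicate 1, control replicate 2 or knockout replicate 1, with folds from 1.25 to 2.55, 1.54 to 2.39 and 1.15 to 1.92, and 2 of 4 were lost without knockout replicate 2.

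Dot1l, the only known H3K79 writer, had the largest upstream fold of the 47 members under TMM scaling. Its CPM was 21.7 and 15.7 in the controls and 400 and 187 in the knockouts (log2 fold 3.96, SE 0.78, edgeR adjusted p 1.2e-05). The gene lies on chr10:80755101-80795461 (plus strand), and no other gene start lies in the 5 kb before its outermost RefSeq start. Its deposited length, 39142 bp, is shorter than the 40259 bp its RefSeq promoter entry implies, so its counted start is uncertain. Of the H4K20 writers, Kmt5a, the monomethyltransferase, had 17.4 and 22.4 against 86.4 and 45.4 (log2 fold 1.72, edgeR adjusted p 0.00203). Kmt5c rose by 1.09 (edgeR adjusted p 0.0494) and was not called with library totals, the GC correction, the unfiltered table or the DESeq2 Wald test, and Kmt5b had 0.58 (SE 0.46). All 3 arginine writers rose: Prmt5, which writes symmetric dimethylarginine, had 13.9 and 9.94 against 59.1 and 46.5 (log2 fold 2.14, SE 0.49, edgeR adjusted p 2.0e-04), and Carm1 and Prmt1 rose by 1.80 and 1.60. Of 4 SET or SMYD proteins with non-histone or debated substrates, Setd5 had 17.4 and 22.4 against 101 and 58.7 (log2 fold 2.00, edgeR adjusted p 5.1e-04), and Setd3, an actin histidine methyltransferase, rose by 1.88. The Setd5 window holds the start of Gt(ROSA)26Sor. Smyd3 and Smyd5 did not pass, with 1.08 (edgeR adjusted p 0.0521) and -0.53 (edgeR adjusted p 0.344). Without control replicate 1, control replicate 2 or knockout replicate 1 the calls of Dot1l (4.21, 3.75 and 3.36), of the H4K20 writers (0.94 to 1.56, 1.27 to 1.92 and 0.75 to 1.23), of the arginine writers (1.57 to 2.40, 1.63 to 2.07 and 1.06 to 2.00) and of Setd3 and Setd5 (1.83 to 2.08, 1.70 to 2.19 and 1.5 to 1.60) were lost. Without knockout replicate 2, Dot1l kept its call with 4.56, and Kmt5a, Kmt5c, Carm1 and Prmt5 lost theirs.

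Of the erasers, all 3 of H3K27 and both Kdm2 erasers of H3K36 rose upstream, as did 3 of 5 of H3K4 and 4 of the 6 that act on H3K9 or H3K36. Kdm6b, the inducible H3K27 demethylase JMJD3, had 24.3 and 25.7 CPM upstream in the controls and 433 and 155 in the knockouts (log2 fold 3.55, SE 0.77, edgeR adjusted p 7.0e-05). Its X-linked paralog Kdm6a (UTX) had 13 and 6.63 against 61.4 and 37.7 (log2 fold 2.32, SE 0.51, edgeR adjusted p 9.0e-05), and Kdm7a rose by 1.59. Among H3K36 erasers, Kdm2a had 13.9 and 16.6 against 141 and 57.6 (log2 fold 2.69, SE 0.53, edgeR adjusted p 1.0e-05), and Kdm2b, which binds CpG islands through its CXXC domain, rose by 2.02. In each the 2 groups stood apart, with knockout replicate 2 the lower knockout. Among 5 H3K4 erasers the 3 Kdm5 genes rose and the 2 amine oxidases did not pass. Kdm5a had 12.2 and 26.5 against 205 and 113 (log2 fold 3.03, SE 0.60, edgeR adjusted p 1.6e-05), Kdm5c 6.94 and 10.8 against 45.5 and 36.6 (2.19, edgeR adjusted p 3.5e-04), and Kdm5b 14.8 and 18.2 against 90.9 and 32.1 (1.89, edgeR adjusted p 6.7e-04). Kdm1a and Kdm1b had 1.13 (edgeR adjusted p 0.115) and 0.82 (edgeR adjusted p 0.179), and Kdm1a had 5 and 10 reads in the controls and 15 and 10 in the knockouts (SE 0.60). Deposited lengths of Kdm6b and Kdm5c are 0.694 and 0.896 of their RefSeq spans, so the counted starts of these 2 genes are uncertain.

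The 6 erasers of H3K9 and H3K36 methylation ranged from 2.41 at Kdm3a to the lowest fold of all members at Kdm4c. Kdm3a, a hypoxia-induced H3K9 demethylase, had 9.55 and 7.46 CPM in the controls and 64.8 and 26.6 in the knockouts (log2 fold 2.41, SE 0.52, edgeR adjusted p 7.8e-05). Kdm4d had 6.94 and 8.29 against 42.1 and 22.2 (log2 fold 2.05, edgeR adjusted p 0.00133), in a window that holds the start of Cwc15. Kdm3b and Kdm4b rose by 1.86 and 1.68, and Kdm4a did not pass with 1.13 (edgeR adjusted p 0.0659). Kdm4c had 83.3 and 74.6 in the controls and 33.0 and 37.7 in the knockouts (log2 fold -1.16, SE 0.50, edgeR adjusted p 0.0509). Both knockouts lay below both controls, and the gene counted as lower with library totals (-1.33) and with the GC correction (-1.19). It was not lower even at an unadjusted edgeR p under 0.05 with totals pooled over regions or receptor gene scaling. The same held with the replicate number as a block, so its fall depends on the scaling and the model. The window counted for it lies before the CG-free outer start printed above, and the CG-rich inner start lies 9382 bp inside the gene. Without control replicate 1, control replicate 2 or knockout replicate 1 all 12 eraser calls were lost, with folds from 1.34 to 3.52, 1.92 to 3.69 and 0.90 to 2.67, and without knockout replicate 2, 4 of 12 were still called.

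**Figure D3:**
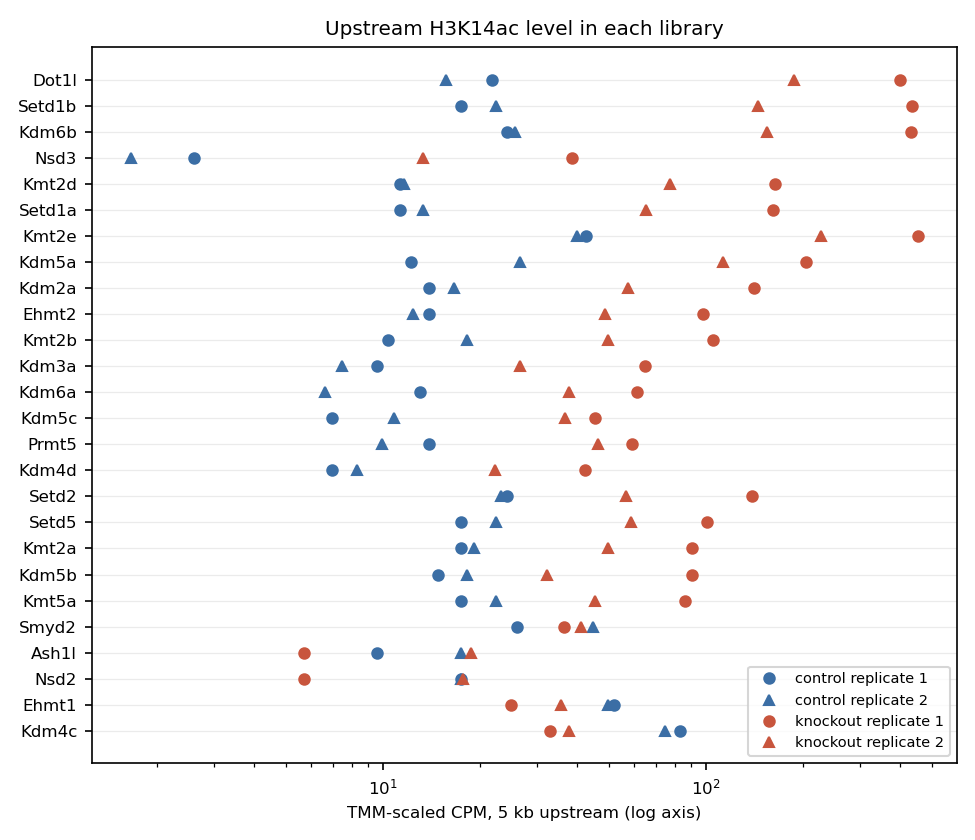
TMM-scaled upstream CPM (log axis) in each control (blue) and knockout (red) library for the 21 members named by the rule, all called, and for Smyd2, Ash1l, Nsd2, Ehmt1 and Kdm4c, none called. Members are ordered by fold, from Kdm4c (83.3 and 74.6 against 33.0 and 37.7) to Dot1l (21.7 and 15.7 against 400 and 187).

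Upstream windows of 5 kb can hold starts of other genes. In 15 members at least 1 other start lay in the window, and 12 of them rose (median log2 fold 2.00). They were Kmt2b, Kmt2c, Setd1b, Nsd3, Setdb2, Ehmt2, Kmt5c, Prmt1, Prmt5, Setd5, Kdm2b and Kdm4d, and their reads cannot be assigned to one gene. Of the 32 members with no other start, 22 rose (median 1.87). By start type, 31 of 40 members with a CpG-rich start rose (77.5%), against 43.4% of all such genes. Of 7 members counted as without one 3 rose, Kmt2d, Kdm6a and Kdm6b, and the share of all genes so counted is not given here. The start type label scores the outermost RefSeq start. The entries closest to the deposited lengths of Kmt2d and Kdm6a held 26 and 15 CG dinucleotides, with 250-base CpG ratios of 0.91 and 0.68. Kdm6b had no entry and a deposited length shorter than its RefSeq span, so its start type is uncertain. Some members just missed a call or just made it: Kmt5c (edgeR adjusted p 0.0494) lay inside the threshold, and Kdm4c (0.0509) and Smyd3 (0.0521) outside it.

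Over gene bodies 23 of 47 members rose and 0 fell, against 23.1% and 15.2% of 21393 genes tested and 36.6% and 8.33% of genes with a CpG-rich start. The median log2 fold was 0.90 over the members, 0.02 over all genes and 0.62 over genes with a CpG-rich start. Over the 40 members with a CpG-rich start it was 0.87. Of the writers 16 of 31 rose (median 0.97) and of the erasers 7 of 16 (median 0.59). No member had an unadjusted p under 0.05 in the lower direction, and the DESeq2 Wald test called 20 higher and 0 lower. Leaving out control replicate 1, control replicate 2, knockout replicate 1 or knockout replicate 2 gave 6, 13, 12 and 30 higher members, with median folds of 0.59, 1.17, 0.74 and 1.11. The GC correction counted Kdm4b as lower (-0.95), and under it 4 of the 23 calls were lost, those of Kmt2b (0.49), Dot1l (0.52), Kdm2b (0.66) and Suv39h1 (1.16). Scaling moved the median of all genes by up to 0.64, and relative to that median the members stood 0.88 higher.

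Kdm6b had the largest gene body fold of the members. Its CPM was 2.37 and 4.85 in the controls and 125 and 42.9 in the knockouts (log2 fold 4.53, SE 0.40, edgeR adjusted p 2.8e-14), and it stayed between 3.46 and 5.24 with its call under every alternative run. The deposited length of Kdm6b, 15168 bp, is shorter than its RefSeq span (chr11:69398508-69420367), so the counted body is the shorter model. All 3 H4K20 writers rose over their bodies: Kmt5c had 3.16 and 3.66 against 33.8 and 12.2 (log2 fold 2.74, SE 0.46, edgeR adjusted p 3.4e-06), Kmt5a 6.32 and 9.01 against 57.9 and 23.4 (2.40, edgeR adjusted p 1.3e-06), and Kmt5b 12.7 and 24.8 against 47.7 and 40.0 (1.22, edgeR adjusted p 0.00351). Kmt5b, a writer of H4K20 dimethylation and trimethylation, was not called upstream. Kmt2d had 7.71 and 12.1 against 62.0 and 28.3 (2.19, edgeR adjusted p 3.3e-06), Setd1b 5.63 and 8.02 against 42.7 and 19.8 (2.19, edgeR adjusted p 1.7e-05), and Kmt2e 21.9 and 22.6 against 118 and 55.3 (1.96, edgeR adjusted p 1.6e-06). Here too knockout replicate 1 was the higher knockout. With control replicate 1 left out the call of Kmt5b was lost, and the calls of Kmt5a, Kmt5c, Kmt2d, Setd1b and Kmt2e held.

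Prmt1, the main asymmetric arginine methyltransferase, had 1.58 and 2.18 CPM over its body in the controls and 15 and 5.52 in the knockouts (2.43, SE 0.55, edgeR adjusted p 4.1e-04). Ehmt2 had 1.48 and 3.66 against 15.4 and 9.39 (2.26, edgeR adjusted p 5.3e-04), Kdm2a 11.7 and 21.5 against 71.8 and 45.9 (1.83, edgeR adjusted p 1.6e-05), and Kdm4a 9.09 and 20.8 against 50.7 and 26.2 (1.36, edgeR adjusted p 0.00262). These 4 calls were lost without control replicate 1, and that of Kdm4a also without knockout replicate 1. Further calls with smaller folds were Prmt5 (1.68), Suv39h2 (1.44), Kdm5c (1.41), Setd1a (1.31), Dot1l (1.12), Kdm5a (1.02), Nsd1 (0.99), Setd5 (0.97) and Kdm2b (0.84). All 9 were lost without control replicate 1, when their folds and those of Kmt5b, Prmt1, Ehmt2, Kdm2a and Kdm4a ran from 0.56 to 2.21. Of the 20 members described over gene bodies, 7 were lost without control replicate 2 (0.94 to 1.65) and 9 without knockout replicate 1 (0.60 to 1.38). In 3 members, none of which passed the test, both knockouts lay below both controls over the body. So they did in 39.4% of all genes and in 2055 of 9441 genes with a CpG-rich start. The 3 were Smyd3 (1162 and 998 against 760 and 871 CPM, log2 fold -0.40, SE 0.36), Kdm4b (105 and 105 against 73.4 and 88.6, -0.38, SE 0.29) and Kdm4d (34.9 and 31.5 against 24.8 and 27.3, -0.35, SE 0.33).

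Gene length went with the body fold. Of 24 members under 50 kb 16 rose over the body (median log2 fold 1.33), and of 23 members of 50 kb and over 7 rose (median 0.52). Over all genes the shares were 27.8% and 6.40%, below the members' share in both length classes. Across the members Spearman's rho of length and body fold was -0.62 (n = 47), and across all 21393 genes -0.19. Upstream the values were -0.16 and 0.13, and 19 of 24 short and 15 of 23 long members rose there (23.9% and 24.2% of all such genes). These correlations are across genes, which share the 4 libraries and are not independent replicates. Kmt5c, the shortest member at 7.39 kb, had a body fold of 2.74, and Smyd3, the longest at 563 kb, had -0.40.

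**Figure D4:**
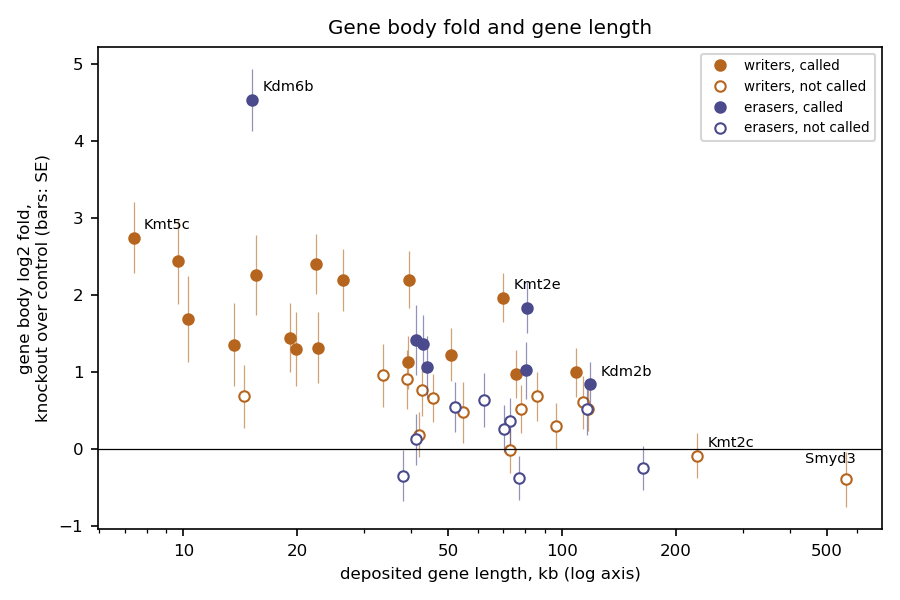
Gene body log2 fold (knockout over control, bars are SE) against deposited gene length in kb (log axis) for the 31 writers and 16 erasers, with filled points for edgeR adjusted p under 0.05. Folds are larger in shorter members, from 2.74 at Kmt5c (7.39 kb) to -0.40 at Smyd3 (563 kb), and Kdm6b stands above all others at 4.53.

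Downstream of the gene end 37 members passed the filter on low counts and 7 of them rose (18.9%). The shares were 10.8% of 21566 genes tested and 14.5% of genes with a CpG-rich start. Of the 32 tested members with a CpG-rich start 3 rose (9.38%). Of the 5 counted as without one 4 rose, Kmt2d, Smyd5, Kdm4a and Kdm6b. The share of all genes so counted is not given here, and for Kmt2d and Kdm6b this start type is in doubt (see above). The 4 of 5 is therefore not read as a result about start type. No member fell by edgeR, against 2.29% of all genes, with 0 at an unadjusted p under 0.05 in that direction and 0 by the DESeq2 Wald test. Dot1l had 13.3 and 12 CPM against 259 and 106 (log2 fold 3.83, SE 0.53, edgeR adjusted p 6.2e-04), Carm1 17.2 and 18.4 against 196 and 56.7 (2.79, edgeR adjusted p 0.00145), and Kdm4a 14.1 and 16.8 against 138 and 51.4 (2.58, edgeR adjusted p 0.00124). Kmt2d had 28.2 and 39.9 against 298 and 102 (2.54, edgeR adjusted p 0.00661), and Smyd5 7.04 and 16.0 against 57.8 and 34.3 (1.97, edgeR adjusted p 0.0114). In all 5 both knockouts were above both controls, with knockout replicate 1 the highest. The calls of Kdm6b (edgeR adjusted p 0.0014) and Nsd3 (edgeR adjusted p 0.0155) rested on few reads, 1 and 1 against 25 and 10 for Kdm6b, and 0 and 3 against 10 and 9 for Nsd3. Their ratios of scaled counts were 34.2 (95% exact interval 8.79 to 294) and 12.4 (3.64 to 65.3), intervals that cover counting error only. Of 10 members that did not pass the filter, Setd2 and Kmt5c had 0 counts in all 4 libraries. With control replicate 1 left out only the calls of Kdm4a and Kdm6b held of these 7, and those of Dot1l, Carm1, Kmt2d, Smyd5 and Nsd3 were lost (1.5 to 3.90 over the writers). Without control replicate 2 that of Kmt2d was lost (2.81), and without knockout replicate 1 that of Smyd5 (1.57), while Kdm6b and Nsd3 were then not tested. Without knockout replicate 2 the other 6 calls held, Nsd3 was not tested, and Kdm4d counted as lower (-2.25).

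Kmt2d, Dot1l and Kdm6b rose in all 3 regions. Upstream and gene body calls coincided in 20 members, 14 rose upstream and were not called over the body, and 3 (Nsd1, Kmt5b and Kdm4a) were called over the body and not upstream. In 10 members neither was called: Nsd2, Ash1l, Smyd2, Setdb1, Ehmt1, Smyd3, Smyd5, Kdm1a, Kdm1b and Kdm4c. Shares of all genes with such joint calls are not given here, so these counts describe the members only. In single regions 24.0% of all genes rose upstream and 23.1% over bodies, and 43.4% and 36.6% of genes with a CpG-rich start. A call in 1 region and not in the other does not show that the regions differ, so the difference was tested as an interaction with the library as a block. The upstream fold exceeded the body fold in 19 of 47 members and was smaller in 2, Kmt5c and Smyd5, against 10.2% and 5.27% of 19996 genes. A share for genes with a CpG-rich start is not given for this comparison. Such a start was present in 85.1% of members and 39.9% of all genes, and its part in the difference was not tested. Dot1l differed most clearly, with 3.96 upstream and 1.12 over the body (difference 2.81, SE 0.37, edgeR adjusted p 5.6e-05). The differences of Kdm5a (2.01), Kdm4d (2.39), Setd3 (1.88), Nsd3 (3.01), Kdm4b (2.05), Kdm6a (1.82) and Setd1b (1.58) had edgeR adjusted p-values of 9.6e-04, 0.00145, 0.00156, 0.00243, 0.00403, 0.00413 and 0.00588. For Setd3, whose body CPM was 61.1 and 51.0 against 52.9 and 57.6, the groups overlapped over the body, and upstream they were 26.9 and 20.7 against 110 and 65.4. Kmt5c went the other way with 1.09 upstream and 2.74 over the body (difference -1.56, SE 0.43, edgeR adjusted p 0.0165). Smyd5 had -0.53 upstream and 0.68 over the body (difference -1.19, SE 0.40, edgeR adjusted p 0.0459). For Kdm6b the difference of -1.0 missed the threshold (edgeR adjusted p 0.0902).

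The count of these differences depended on scaling and on single libraries. With library totals, which shift the median of all genes by -0.53 in this comparison, 6 members were higher and 6 lower (Kmt5c, Smyd5, Kdm6b, Kmt5b, Kdm4c and Ehmt1), and 13 of the 21 calls were lost. The lost ones, with differences from 0.50 at Carm1 to 1.27 at Kdm6a, included all 6 H3K4 writers of the 19. Dot1l, Kdm5a, Kdm4d, Setd3, Nsd3 and Kdm4b kept their calls with library totals, as did Kmt5c and Smyd5. With totals pooled over regions or receptor gene scaling neither Kmt5c (-1.21 and -1.26) nor Smyd5 (-0.85 and -0.91) was called. Without control replicate 1, control replicate 2, knockout replicate 1 or knockout replicate 2 the higher members numbered 6, 6, 12 and 24 and the lower ones 0, 0, 1 and 5. Dot1l was called in all 4 of these fits, with differences of 3.20, 2.45, 2.66 and 3.06.

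Shares of counts within a library do not use the scaling between libraries. Over the members the median share of a gene's counts that lay upstream was 10.5% and 8.91% in the controls and 20.9% and 14.5% in the knockouts, and over 19996 genes 16.3% and 16.7% against 21.6% and 19.3%. Among the erasers it was 5.31% and 5.49% against 19.7% and 10.5%, and among the writers 14.5% and 10.7% against 21.5% and 18.2%. In 33 members both knockouts had a larger upstream share than both controls (44.3% of all genes), and in 7 both had a smaller one (16.7%). Genes with a CpG-rich start were not counted apart for these shares, and the part of start type was not tested. The largest upward differences were at Dot1l (12.3% and 8.23% in the controls, 46.6% and 38.5% in the knockouts), Setd1b (20.8% and 23.3% against 61.0% and 47.1%), Setd1a (17.8% and 18.6% against 62.3% and 37.6%) and Kdm5a (9.21% and 15.2% against 50.6% and 36.3%). The largest downward ones were at Kmt5c (40.7% and 43.9% against 21.5% and 28.1%), Smyd5 (31.0% and 31.8% against 14.3% and 22.6%) and Kdm6b (52.8% and 38.3% against 35.1% and 32.0%), at which the body fold exceeded the upstream fold. With 2 libraries a group no exact test of a share can reach the threshold, so none is given.

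**Figure D5:**
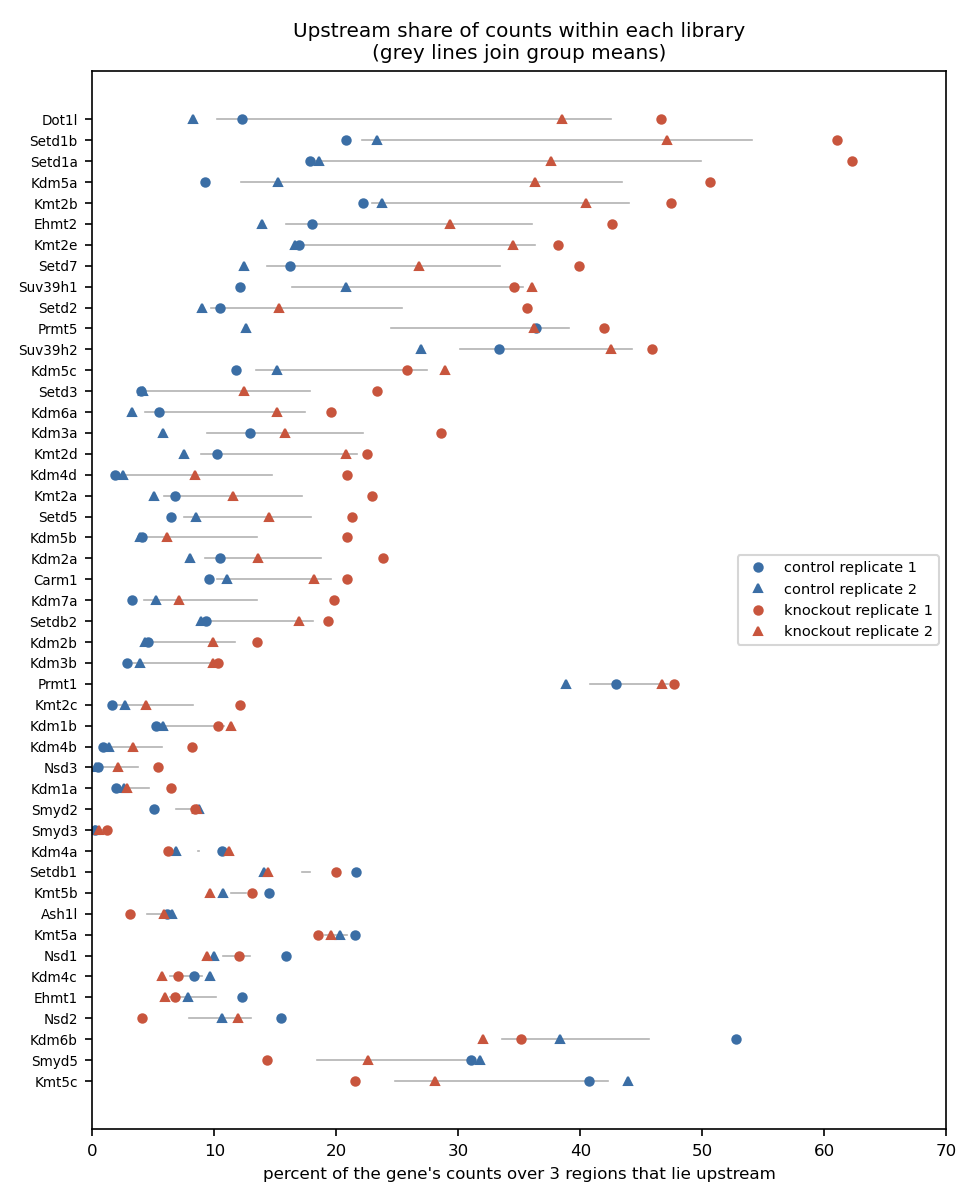
Share of each member's counts over the 3 regions that lies upstream, in percent, in each control (blue) and knockout (red) library, with grey lines joining group means and members ordered by the change. Dot1l, Setd1b, Setd1a and Kdm5a show the largest upward differences, and Kmt5c, Smyd5 and Kdm6b the largest downward ones (Kmt5c with 40.7% and 43.9% against 21.5% and 28.1%).

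Partner proteins of these enzymes and further enzymes of the same families give the wider pathway, as 7 lists of 63 genes, of which the called genes with the smallest p in each list are named. Upstream 26 of 60 tested rose and 1 fell, against 24.0% and 14.3% of all genes and 43.4% and 3.14% of genes with a CpG-rich start. Over gene bodies 23 of 62 rose and 3 fell, against 23.1% and 15.2% of all genes and 36.6% and 8.33% of genes with a CpG-rich start. In both regions the share that rose was close to that of CpG-rich genes, so the values of the lists below describe these genes and show nothing particular to the complexes. Downstream 8 of 51 rose and 0 fell by edgeR (0 also by the DESeq2 Wald test), against 10.8% and 2.29% of all genes. Of genes with a CpG-rich start 14.5% rose there. Without control replicate 1, control replicate 2, knockout replicate 1 and knockout replicate 2 the genes called higher numbered 0, 2, 0 and 13 upstream, 2, 10, 12 and 29 over bodies, and 2, 7, 6 and 10 downstream.

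Subunits of the COMPASS and KMT2 complexes rose at 7 of 13 genes upstream (median log2 fold 1.23). Hcfc1, the X-linked host cell factor that binds SETD1 and KMT2 complexes, had 11.3 and 9.94 CPM in the controls and 293 and 83.1 in the knockouts (log2 fold 4.13, SE 0.67, edgeR adjusted p 1.2e-07). The largest upstream fold of the 47 members was 3.96 (SE 0.78) at Dot1l, and the difference from Hcfc1 was not tested. Cxxc1, the CpG-binding subunit of the SETD1 complexes, rose by 2.40, and over gene bodies Hcfc1 and Men1 (menin) rose by 3.08 and 2.92. In the PRC2 core, which writes H3K27 methylation, Ezh2 and Eed rose upstream (2.04 and 1.70), and Eed and Suz12 rose over gene bodies (2.00 and 1.83). Ezh2 had 7.81 and 18.2 CPM upstream against 73.9 and 34.3, so its groups did not overlap. All 5 DOT1L and super elongation partners tested upstream had a median of 1.88 and 4 of them rose, among them Mllt6 (2.56) and Mllt3 (1.88), and Aff4 and Mllt10 rose over bodies (1.21 and 1.08). Among H3K9 methylation partners 4 of 8 rose upstream, among them the HP1 gene Cbx3 (3.47) and the corepressor gene Trim28 (2.95), and 6 of 8 rose over bodies, among them Uhrf1 (2.01) and Trim28 (1.91). Of the LSD1 corepressor partners 3 of 7 rose upstream, among them Hmg20b (3.08) and Rcor1 (2.75), and over bodies Hmg20b alone rose (2.01). Of the other JmjC proteins 5 of 9 rose upstream, among them Jmjd6 (2.31) and Phf8 (2.07), and Jmjd6 and Riox1 rose over bodies (2.51 and 2.19).

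The 14 other methyltransferases tested upstream, several of them restricted to muscle, brain or germ cells, had a median log2 fold of 0.31, with 1 higher and 1 lower. Prdm9, the H3K4 writer of meiotic hotspots, rose by 1.46. Smyd1, a heart and skeletal muscle gene, had 37.3 and 56.3 CPM in the controls and 9.09 and 25.5 in the knockouts and fell by 1.43 on the log2 scale (edgeR adjusted p 0.0128). This call was lost with the DESeq2 Wald test (-1.39), pooled totals (-0.92) and receptor gene scaling (-0.62). It was also lost without control replicate 1 (-1.69), control replicate 2 (-1.10), knockout replicate 1 (-0.84) or knockout replicate 2 (-2.21). Over gene bodies 2 of 15 rose and 3 fell. Prmt6 had 4.54 and 5.25 CPM in the controls and 16.8 and 11 in the knockouts (edgeR adjusted p 0.00895). Prmt7 had 12 and 23.1 against 39.6 and 34.1 (edgeR adjusted p 0.0123). How these 2 higher calls hold under the alternatives is not given here. Smyd1, Prmt8, an arginine methyltransferase of the brain, and Prdm16 fell over gene bodies by 1.14, 1.05 and 1.13. Receptor gene scaling ended all 3 lower calls (-0.49, -0.43 and -0.48), as did leaving out control replicate 1 (-0.90, -1.01 and -0.85). Without control replicate 2 or knockout replicate 1 the calls of Prmt8 (-1.11 and -0.78) and Prdm16 (-1.39 and -0.91) were lost. Smyd1 and Prmt8 belong to the same families as members that rose or were not called, and the difference between them and the members was not tested.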

How the data were processed

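H3K14ac CUT&Tag libraries of LSK cells, 2 control and 2 knockout, were analysed, and the HBO1 library was not used here. The authors deposited whole-number read counts per gene in 3 tables (5 kb upstream of the start, gene body, 5 kb downstream of the end), and featureCounts and mm10 are named in the submitters' processing notes. Aligner, duplicate handling, strand and spike-in are not given in the sources used here, so only relative changes can be read. The series tables equalled the per-library files in all 326148 values compared. Entrez identifiers were given RefSeq symbols for 25275 of 27179 genes (93.0%). All 47 members and the partner and marker lists were chosen with earlier results of these data known.

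Counts were filtered with filterByExpr (minimum count 10, minimum total 15), scaled by TMM and tested with edgeR's quasi-likelihood test over all genes of a region with Benjamini-Hochberg adjustment at 0.05 (R 4.3.3, edgeR 4.0.16, limma 3.58.1). Summaries and figures used Python 3.11.15. The difference between upstream and body folds was an interaction with the library as a block. Depth was 6466740 to 14811651 counts a library, and a member with few reads has a wide error. Members are printed by smallest p among those past the threshold, up to 20 upstream and over bodies and up to 8 in the other comparisons, with the member of smallest p for a substrate list not so covered, the 3 highest and 3 lowest control levels of a region and 2 genes per partner list. Other members printed, such as Kdm4c, Ehmt1, Nsd2, Ash1l and Smyd2, were chosen after their values were seen. So were the partners Prdm16, Prmt6 and Prmt7. Alternatives were 4 other scalings, the DESeq2 1.42.0 Wald test, other filters, a replicate block and leaving out each library. A crossed block, a GC correction (loess, span 0.3) and a replicate block in the region test were added after the data were seen. The scripts were tested on simulated data.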

Additional observations from a re-analysis of the deposited data

How the results depend on the processing

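No member changed direction and passed the test under any alternative. Leaving out 1 library at a time gave 0 to 18 higher members upstream (34 with all 4 libraries), 6 to 30 over gene bodies (23), 2 to 8 downstream (7), and 6 to 24 higher and 0 to 5 lower in the region test (19 and 2). With one library left out the lone library of its group is assumed to vary like the others. Lower members numbered 0 in all 4 libraries together and 0 to 1 downstream with a library left out. A mean count of at least 50 left 15 members upstream, of which 14 were higher, and 8 downstream, of which 2 were higher. It left 14 in the region test, of which 10 were higher and 0 lower. Of all genes past it 31.9% were higher upstream, 13.6% downstream and 19.8% in the region test (4.34% lower). The filter averages all 4 libraries, so some members low in the controls passed through their knockout reads. Setd1a, with 13 and 16 reads upstream against 142 and 59, is an example. These counts of higher members therefore give no separate support. Library totals gave 1 lower member upstream, and 6 higher and 6 lower members in the region test. Lower members in the region test numbered 1 with DESeq2 size factors, 0 with totals pooled over regions and 0 with receptor gene scaling. The GC correction gave 1 lower member upstream (Kdm4c) and 1 over bodies (Kdm4b). Over bodies receptor gene scaling ended 5 of 23 calls, those of Kdm3a (1.70), Kmt2b (1.97), Kdm4a (2.02), Kdm5c (2.10) and Prmt5 (2.30). The share of counts upstream rose by a median of 8.16 percentage points, and by 4.75 to 11.2 with 1 library left out.

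The replicate numbers pair the libraries by number only: same-numbered deviations correlated at -0.279 upstream, -0.37 over bodies and -0.216 downstream. With the replicate number as a block 27 members were higher upstream, 11 over bodies and 7 downstream. Upstream the calls of Kmt2c, Setd7, Prmt1, Suv39h2, Setdb2, Kmt5c and Kdm7a were lost, and over bodies those of Prmt5, Suv39h1, Suv39h2, Kdm3a, Kdm5a, Kdm5c, Kmt2b, Setd1a, Dot1l, Nsd1, Setd5 and Kdm2b. With the pairing crossed, an alternative chosen after seeing the data, the block gave 36, 31 and 9 higher members, and 1 lower member in each region. In the region test a replicate block by region, also added after seeing the data, gave 19 higher and 2 lower members, with Carm1 lost (1.03) and Kdm7a gained (1.26).

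Over all genes the upstream split was 5557 higher and 3328 lower, and 7668 and 458 with pooled totals, 7188 and 39 with receptor gene scaling, and 4521 and 1454 with the DESeq2 Wald test. Over bodies 4935 and 3260 became 6377 and 990 with library totals and 4424 and 191 with receptor gene scaling. Downstream 10 members had too few reads to be tested.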
